A study of Mus musculus with 6 samples.

Results

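The MHC class II presentation genes are the genes with which a cell displays peptides from engulfed or surface proteins to CD4 T cells. They were taken from the gene table by symbol, as 10 genes of the 60832 listed: the classical chain genes H2-Aa, H2-Ab1 and H2-Eb1, the invariant chain gene Cd74, the regulator Ciita, the peptide exchange genes H2-DMa, H2-DMb1 and H2-DMb2, and their modulators H2-Oa and H2-Ob. All 10 were found, and 9 passed the filter on low counts and were tested. H2-Oa, with between 1 and 13 counts per library, was not tested. The genes were selected by symbol, with earlier results of these data known, and no measured value entered the rule.

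The libraries were made from liver sinusoidal endothelial cells (LSECs), the fenestrated endothelium of the liver, of BALB/c-Nu mice whose liver carried tumors of HCT116, a cell line from a human colorectal cancer, as a model of colorectal cancer liver metastasis (CRCLM). The sensitive group held 3 libraries, from bevacizumab-sensitive HCT116 CRCLM xenografts, and the resistant group 3, from bevacizumab-resistant ones. By the study's methods, the mice were male and 4 to 6 weeks old when obtained, resistance was acquired under bevacizumab, an antibody to human VEGF-A, at 10 mg/kg given 2 times a week for 7 weeks (42 days by its results), and vehicle animals received IgG. The labels do not state what the sensitive group was given. In both groups the cells were taken with anti-CD146 beads and, by the labels, cultured for 24 h before RNA extraction. Nude mice lack a thymus and so most mature T cells, the cells to which class II molecules present. Nothing states whether the 3 libraries of a group came from separate animals, so p-values measure only the spread between these libraries, which may be technical.

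A classical class II molecule is a pair of an α and a β chain, which in the mouse is either I-A, from H2-Aa and H2-Ab1, or I-E, from H2-Ea and H2-Eb1. The invariant chain encoded by Cd74 fills the groove and guides the pair to the endosome, where proteases trim it, H2-DM exchanges the remaining fragment for a peptide and H2-DO restrains H2-DM. CIITA is the coactivator that switches these genes on together, through a promoter module of X and Y boxes bound by the RFX and NF-Y complexes. In the liver the pathway is best known from dendritic cells, B cells and Kupffer cells (the resident macrophages), and LSECs can use it at a lower level.

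Of the 10 genes, 8 lie in the class II region of chromosome 17, which in GRCm38 (GENCODE M21) runs from 34092340 at the start of H2-Oa to 34344645 at the end of H2-Ea. Ciita lies on chromosome 16 from 10480059 to 10528418. RefSeq promoter windows of GRCm38.p6, each of 300 bases with 250 before the start and 50 after it, were at hand for 7 of the 10 genes in 8 entries. H2-Ab1, Cd74 and Ciita had no entry. The windows were searched on both strands for the core of the X box, written here as AGNAAC, any 3 bases, then TG, and for the core of the Y box, CCAAT, which reads ATTGG on the other strand. The stretch from 110 to 21 bases before the start is shown for 4 genes, since this is where the module stood in those genes that held both motifs. Capitals mark the matches, and each is written 5′ to 3′ on the strand of the gene.
H2-Eb1, plus strand, chr17:34305757-34305846: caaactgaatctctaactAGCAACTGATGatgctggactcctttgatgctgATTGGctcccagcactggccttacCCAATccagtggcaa
H2-Ob, plus strand, chr17:34238795-34238884: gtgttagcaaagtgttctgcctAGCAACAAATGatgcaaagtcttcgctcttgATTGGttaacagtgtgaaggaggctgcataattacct
H2-Aa, minus strand, chr17:34287844-34287933: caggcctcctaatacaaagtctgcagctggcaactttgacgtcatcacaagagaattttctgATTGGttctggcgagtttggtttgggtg
H2-DMb2, plus strand, chr17:34145139-34145228: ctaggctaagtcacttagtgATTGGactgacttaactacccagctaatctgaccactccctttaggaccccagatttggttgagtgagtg
In GENCODE M21, the first 3 stretches lie before the annotated gene, and the stretch of H2-DMb2 lies within the longer annotated gene, outside its exons. The core of the Y box was found for 7 of 7 genes, against 37.4% of all 32851 promoter windows. These shares count windows, where the 7 are genes, and a further window of H2-DMa held no match. The match of H2-DMa stood 198 to 194 bases before the start. The core of the X box was found in 3 of 7, H2-Eb1, H2-DMb1 and H2-Ob, against 4.18% of all windows, and both motifs together stood in 1.57% of all windows. From the X box to the nearest ATTGG there were 22 bases in H2-Eb1, 23 in H2-DMb1 and 20 in H2-Ob. A match describes these letters only, and a window without one says nothing about binding.

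Counts were scaled to CPM, shares of the library total brought to a common scale after a TMM correction for composition, and levels of different genes were compared as the deposited FPKM, which also divides by gene length. Total counts ran from 17599326 to 20726684 per library, and 3 counts, taken as the floor, correspond to 0.136 to 0.194 CPM, for counting error only. Sensitive replicate 2 stood apart across the table, at least 2-fold below every other library for 2297 of the 15474 tested genes (14.8%) and at least 2-fold above for 1246 (8.05%). By the study's methods, flow cytometry found the isolated LSECs to be CD146-positive at high purity. The libraries labelled as LSECs nevertheless held little RNA of endothelial markers. Mcam, the gene of CD146, was at 0.307 to 3.86 CPM. The CPM of 5 LSEC markers summed to between 121 and 340.2 in the sensitive and 54.0 and 387 in the resistant group, and that of 12 macrophage and Kupffer cell markers to between 21936 and 41471 and between 25105 and 29114. These are bulk libraries, in which fewer cells of a type and less RNA per cell cannot be told apart, so the class II values below cannot be assigned to LSECs.

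Class II expression was lower on average in the resistant group, through 2 of its 3 libraries. The summed CPM of the 10 genes was 1400.5, 3276 and 4049 in sensitive replicates 1, 2 and 3 and 2313, 316 and 305 in resistant replicates 1, 2 and 3. Resistant replicates 2 and 3 thus lay below every sensitive library, and replicate 1 lay among them. The means were 2909 ± 1362 (SD, n = 3) and 978 ± 1156 (SD, n = 3), a log2 ratio of -1.57 for which, as a sum over chosen genes, no p-value is given. The ratio was -3.23 without resistant replicate 1, and between -1.91 and -1.15 without any other library.

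Neutrophil and pan-endothelial markers had fold changes in the same direction, hepatocyte markers in the other, and LSEC markers in both. All 6 neutrophil markers had negative log2 fold changes, with a median of -1.74, and the groups overlapped for each of them. All 6 pan-endothelial markers were negative too, with a median of -1.42, though Cdh5 was at -0.0011 (standard error 0.888). All 5 hepatocyte markers were positive, with a median of 0.69. No neutrophil or hepatocyte marker had an unadjusted p-value under 0.05 from edgeR. Among the 5 LSEC markers, 4 were lower and 1 higher, with a median of -0.42. Such a p-value was found for 1 of these 5, which was lower, where 2.54% of all tested genes had one and were lower. Of the 6 pan-endothelial markers, 2 did not overlap between the groups, where 4.38% of all tested genes did not and were lower. These 2 genes of the vascular lineage were Tek (-1.93, standard error 0.589, unadjusted p = 0.0132) and Erg (-1.76, standard error 0.405, unadjusted p = 0.00333). Both had an adjusted p-value of 0.940 from edgeR. The pan-endothelial sum was 277, 131 and 354 CPM in sensitive replicates 1, 2 and 3 and 268, 31.5 and 290.3 CPM in resistant replicates 1, 2 and 3. Its means were 254 CPM in the sensitive and 197 CPM in the resistant group, of which Cdh5 alone had 150.1 and 149.98 CPM. The sum thus mainly follows Cdh5. It does not show the course of Tek and Erg, for which all 3 resistant libraries lay below every sensitive one. The part of these cells in the class II values was not tested.

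**Figure D1:**
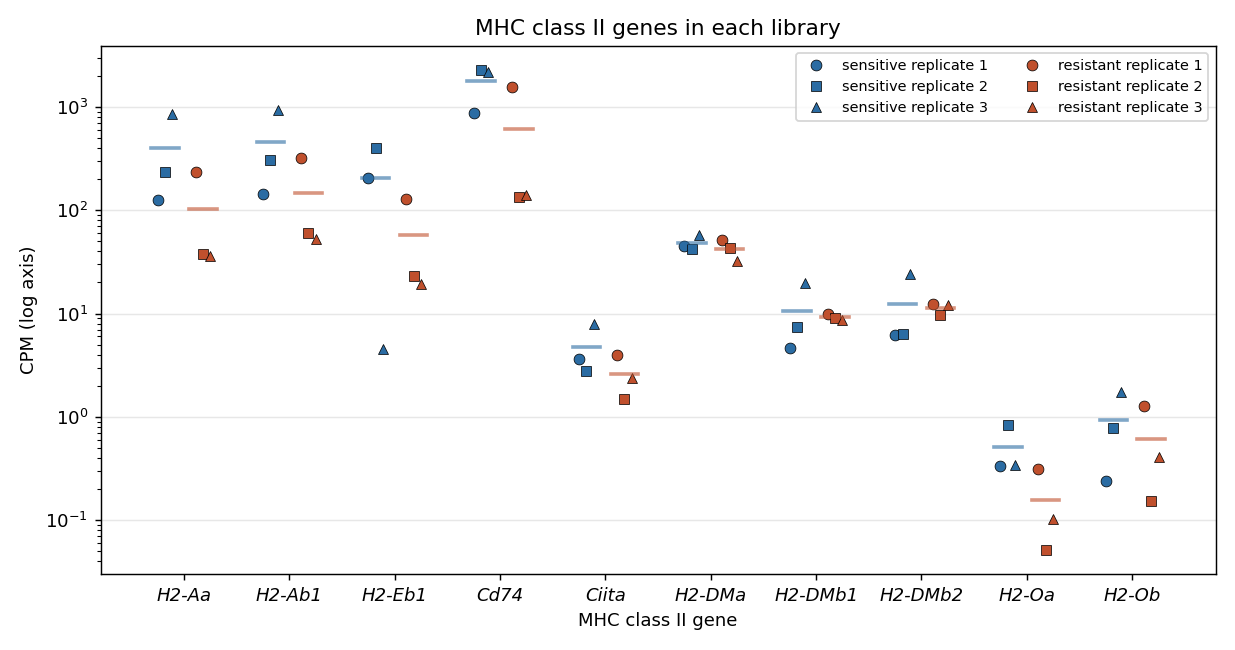
CPM of the 10 MHC class II genes on a log axis, 1 point per library (blue, sensitive; orange, resistant; the shape gives the replicate), with a bar at each group's mean. For Cd74, H2-Aa and H2-Ab1, resistant replicates 2 and 3 sit below every sensitive library while replicate 1 sits among them, and H2-Eb1 is at 4.54 CPM in sensitive replicate 3.

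In edgeR's quasi-likelihood test over the whole table, all 9 tested genes had a negative log2 fold change of the resistant against the sensitive group, with a median of -0.89 against 0.01 over all genes tested. None passed the threshold: 0 of 9 passed 0.05 after Benjamini-Hochberg adjustment, where 0% of the 15474 genes did, and 0 of 9 had an unadjusted p-value under 0.05, where 2.54% of all genes did and were lower and 0.536% did and were higher. With DESeq2's Wald test, which called 0.155% of all genes after adjustment, no class II gene passed. The unadjusted p-value was under 0.05 for 2 of them, H2-Aa and H2-Ab1, where it was for 732 of the 15474 genes. DESeq2 gave Cd74 no p-value. The groups overlapped in CPM for all 9, where 4.38% of all genes did not overlap and were lower in the resistant group and 4.64% did not and were higher. A looser description, chosen after the values were seen, counts genes for which at least 2 resistant libraries lay below every sensitive library. It held for 4 of 9, H2-Aa, H2-Ab1, Cd74 and Ciita, and for 15% of all genes tested. In exact permutation tests over the libraries (two-sided, smallest possible p = 0.1), the p-values of the 9 genes lay between 0.2, for Cd74, and 1.

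**Figure D2:**
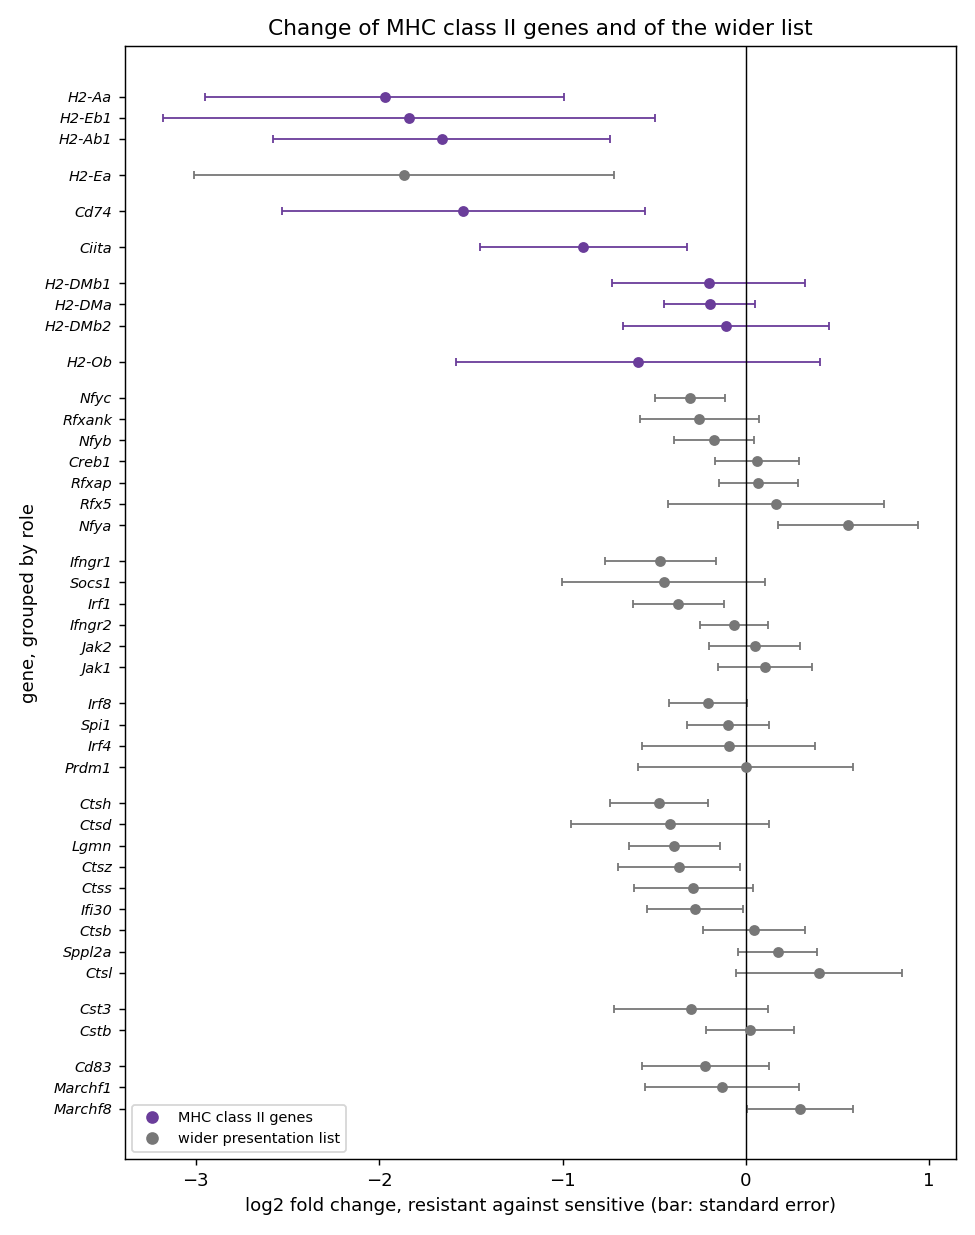
Log2 fold change (resistant against sensitive, edgeR) with its standard error for the 9 tested class II genes (purple) and for tested genes of the wider presentation list (grey), grouped by role. The classical chain genes, H2-Ea and Cd74 lie between -1.97 and -1.54 with standard errors of 0.920 to 1.34, and the H2-DM genes lie between -0.20 and -0.11.

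H2-Aa and H2-Ab1 encode the α and β chains of I-A. H2-Aa was at 125, 233 and 850.5 CPM in sensitive replicates 1, 2 and 3 and at 235, 37.5 and 35.9 CPM in resistant replicates 1, 2 and 3. H2-Ab1 was at 143, 304 and 929 CPM and at 323, 59.8 and 52.7 CPM in the same order. Both genes were thus highest in sensitive replicate 3 and lowest in resistant replicates 2 and 3, and resistant replicate 1 lay above 2 of the 3 sensitive libraries. The log2 fold change of H2-Aa was -1.97 (standard error 0.980, edgeR adjusted p = 0.940), and that of H2-Ab1 was -1.66 (standard error 0.920, edgeR adjusted p = 0.940). The pair kept a narrow ratio. In FPKM, H2-Aa stood at between 0.424 and 0.619 of H2-Ab1 in every library, while H2-Ab1 itself ranged from 20.9 to 360.3 FPKM. Single libraries set the size of the change of H2-Aa, which was -0.79 without sensitive replicate 3 and -3.45 without resistant replicate 1 (edgeR adjusted p = 0.718 and 0.973). For H2-Ab1 these values were -0.62 and -3.02.

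H2-Eb1, the β chain of I-E, behaved differently in 1 library. It was at 206, 401 and 4.54 CPM in sensitive replicates 1, 2 and 3, and at 129, 23.2 and 19.2 CPM in resistant replicates 1, 2 and 3. The lowest library of all 6 was therefore sensitive replicate 3, with 93 counts against 4314 and 6201 in the other sensitive libraries, although the same library had the most H2-Aa and H2-Ab1. The log2 fold change was -1.84 (standard error 1.34, edgeR adjusted p = 0.940). Without sensitive replicate 3 it was -2.41, with an unadjusted p-value of 0.0270 and an adjusted p-value of 0.659 from edgeR. In that fit, 1056 of 16169 genes had an unadjusted p-value under 0.05. This library stands out by its H2-Eb1 value itself, so the fit without it is no independent support. The change was -0.90 without sensitive replicate 2, -3.25 without resistant replicate 1, and -0.86 both with limma-voom and with the replicate number as a block.

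H2-Ea, the α chain that pairs with H2-Eb1, is not among the 10 genes but was in the wider list, and it was likewise lowest in sensitive replicate 3. It had 1117, 1071 and 41 counts in sensitive replicates 1, 2 and 3, which are 53.3, 69.3 and 2.00 CPM. In resistant replicates 1, 2 and 3 it had 522, 82 and 124 counts, which are 23.6, 4.20 and 6.34 CPM. Its log2 fold change was -1.86 (standard error 1.15, edgeR adjusted p = 0.940).

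The 2 kinds of class II chain thus parted in sensitive replicate 3. There the FPKM of H2-Eb1 was 0.00646 of that of H2-Ab1, where the other 5 libraries had ratios of 0.480 to 1.90. The FPKM of H2-Ea was 0.00863 of that of H2-Aa, where the others had 0.368 to 1.57. Within I-E the ratio of H2-Ea to H2-Eb1 was 0.827 in that library and 0.324 to 0.620 in the others, so both I-E genes were low together. This library lay at least 2-fold below every other for 228 of 15474 genes (1.47%), H2-Eb1 and H2-Ea among them, and at least 2-fold above every other for 93 genes (0.601%), H2-Aa and H2-Ab1 among them. Among the remaining libraries, the ratio of H2-Eb1 to H2-Ab1 was 1.90 and 1.74 in sensitive replicates 1 and 2 and 0.526, 0.513 and 0.480 in resistant replicates 1, 2 and 3.

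**Figure D3:**
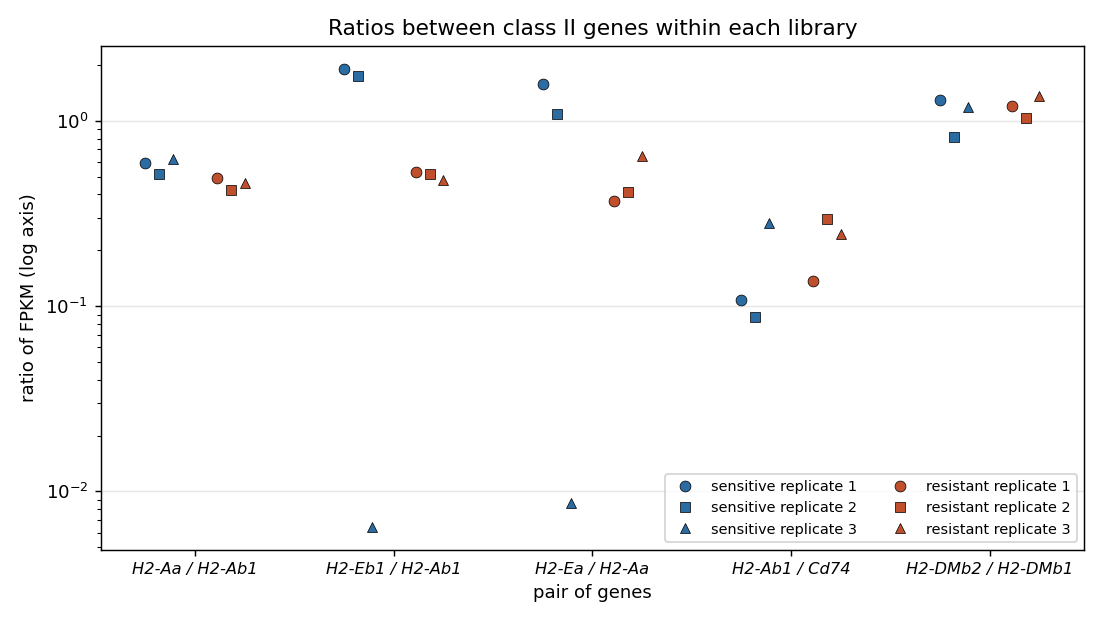
Ratio of the deposited FPKM of pairs of class II genes in each library, on a log axis (blue, sensitive; orange, resistant; the shape gives the replicate). H2-Aa over H2-Ab1 stays between 0.424 and 0.619 in all 6 libraries, while H2-Eb1 over H2-Ab1 and H2-Ea over H2-Aa are at 0.00646 and 0.00863 in sensitive replicate 3 and at 0.368 or more in the others.

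A sum of 6 neutrophil markers was also lower in sensitive replicate 3, at 494 CPM against 4330 and 6390 in replicates 1 and 2. In resistant replicates 1, 2 and 3 this sum was 1756, 1399 and 236 CPM, where H2-Eb1 was at 129, 23.2 and 19.2 CPM. The part of these cells in the H2-Eb1 values was not tested. None of the words of read length in the H2-Aa, H2-Ab1, H2-Eb1, H2-Ea or Cd74 transcripts was shared with another gene of the reference transcripts. The reference is of the C57BL/6 strain and the mice were BALB/c-Nu, and the effect of strain differences in these polymorphic genes on the counts was not tested. Whether sensitive replicate 3 came from a mouse of the same H2 haplotype as the other libraries was not tested either, and the H2-Eb1 and H2-Ea fold changes include this library unless stated.

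Cd74, the invariant chain gene, was the most abundant of the 10 genes per length in every library. It was at 867, 2277 and 2154 CPM in sensitive replicates 1, 2 and 3 and at 1547, 133 and 141 CPM in resistant replicates 1, 2 and 3. Resistant replicates 2 and 3 were thus the lowest, while replicate 1 lay above 1 sensitive library and below the other 2. The log2 fold change was -1.54 (standard error 0.991, edgeR adjusted p = 0.940). Without resistant replicate 1 it was -3.68, with an unadjusted p-value of 0.000476 and an adjusted p-value of 0.764 from edgeR. In that fit, 628 of 16049 genes had an unadjusted p-value under 0.05. Without any other library the change of Cd74 lay between -1.87 and -1.05. It was -2.41 with limma-voom (unadjusted p = 0.0419, adjusted p = 0.899), -2.32 with limma on log2(FPKM + 1) and -2.72 with the replicate number as a block. Cd74 made up between 41.98% and 69.5% of the summed CPM of the 10 genes.

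Ciita, the master coactivator, was expressed at a low level. It had 76, 43 and 163 counts in sensitive replicates 1, 2 and 3, or 3.63, 2.78 and 7.96 CPM. In the resistant group it had 87, 29 and 46 counts, or 3.93, 1.49 and 2.35 CPM. Like H2-Aa, it was highest in sensitive replicate 3 and lowest in resistant replicates 2 and 3. Its log2 fold change was -0.89 (standard error 0.566, edgeR adjusted p = 0.940), and -0.30 without sensitive replicate 3. Of the words of read length in its transcripts, 0.314% were shared with Dexi, which overlaps it on the opposite strand.

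The genes of H2-DM, the peptide exchange factor, varied less between libraries than the classical genes. H2-DMa, its α chain, was at 45.3, 42.1 and 58.0 CPM in sensitive replicates 1, 2 and 3 and at 51.9, 42.8 and 32.0 CPM in resistant replicates 1, 2 and 3, a 1.81-fold range over the 6 libraries where H2-Aa had a 23.7-fold range. Its log2 fold change was -0.20 (standard error 0.249, edgeR adjusted p = 0.940). Resistant replicate 2, among the lowest for H2-Aa, lay above 1 sensitive library for H2-DMa.

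H2-DMb1 and H2-DMb2 encode 2 β chains of H2-DM. H2-DMb1 was at 4.63, 7.38 and 19.7 CPM in the sensitive and at 9.94, 9.02 and 8.59 CPM in the resistant group. H2-DMb2 was at 6.25, 6.28 and 24.3 CPM in the sensitive and at 12.4, 9.63 and 12.2 CPM in the resistant group. For both, the 3 resistant libraries lay between sensitive replicates 1 and 2, which were lower, and replicate 3, which was higher. Their log2 fold changes were -0.20 (standard error 0.526) and -0.11 (standard error 0.562), with edgeR adjusted p-values of 0.952 and 0.977, and the direction rested on single libraries. Without sensitive replicate 3 they were 0.63 and 0.87, and the unadjusted p-value for H2-DMb2 was 0.0297, with an adjusted p-value of 0.659 from edgeR. In that fit, 1056 of 16169 genes had an unadjusted p-value under 0.05. Without resistant replicate 2, H2-DMb2 was at 0.0054 on the same scale. The 2 genes are partly alike, sharing 11.2% of the words of read length of H2-DMb1 and 10.1% of those of H2-DMb2, so their separate counts are uncertain to that extent. H2-DMa shared 6.54% of its words with Brd2, on the opposite strand. The counting is not stated to use strand, so reads of such overlaps could be counted for either gene.

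The genes of H2-DO, the modulator of H2-DM that is best known from B cells, were close to the floor. H2-Ob, the β chain, had 5, 12 and 36 counts in sensitive replicates 1, 2 and 3 and 28, 3 and 8 in resistant replicates 1, 2 and 3. Its log2 fold change was -0.59 (standard error 0.992, edgeR adjusted p = 0.940), and it was 0.30 without sensitive replicate 3. H2-Oa, the α chain, had 7, 13 and 7 counts in the sensitive group and 7, 1 and 2 in the resistant group. In CPM its lowest sensitive library was at 0.334 and its highest resistant one at 0.316, a gap that counts of 7 cannot resolve, and 8.90% of its words were shared with BC051537, an antisense gene.

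The make-up of the class II RNA therefore differed between libraries. Ciita, H2-DM and H2-DO together took 1.84% to 4.31% of the summed CPM in the 3 sensitive libraries and resistant replicate 1, and 20.0% and 18.3% in resistant replicates 2 and 3, where Cd74 and the classical genes were low. Per length, averaged over the 6 libraries, Cd74 stood first at 694 FPKM, followed by H2-Ab1 at 117, H2-Aa at 66.2 and H2-Eb1 at 64.8 FPKM. H2-DMa came next at 13.2 FPKM, H2-DMb2 at 6.83, H2-DMb1 at 5.88 and Ciita at 0.390 FPKM, with H2-Oa and H2-Ob last at 0.228 and 0.143 FPKM. Cd74 exceeded H2-Ab1, H2-Ab1 exceeded H2-Aa, and H2-DMa exceeded H2-DMb2 in 6 of 6 libraries. H2-Aa exceeded H2-Eb1 in only 1 of 6, sensitive replicate 3, and H2-Oa exceeded H2-Ob in 3 of 6, so the members of these pairs were not ordered beyond the spread between libraries.

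The wider presentation list holds 35 genes that regulate or feed the pathway, of which 33 were tested, 22 lower and 11 higher in the resistant group with a median log2 fold change of -0.17. With edgeR 0 of 33 passed after adjustment. An unadjusted p-value under 0.05 was found for 1 of 33, which was lower, where 2.54% of all tested genes did so and were lower. The groups did not overlap for 3 of 33, Nfyc and Lgmn among them, all lower in the resistant group, where the share of all tested genes was 4.38%. In log2 fold change, though not in these counts, the wider list stood closer to all genes tested than the classical genes and Cd74 did. Its median of -0.17 compares with 0.01 over all genes and with -1.97 to -1.54 for those class II genes. This difference was not tested.

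The inputs from interferon γ, the main inducer of Ciita, were read first. Ifng itself had at most 1 count in a library. The receptor gene Ifngr1 was at -0.47 on the log2 fold change scale (standard error 0.301, edgeR adjusted p = 0.940), and Jak1, the kinase bound to the receptor, at 0.11 (standard error 0.256).

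Among the 7 genes of the factors that bind the X and Y boxes, 3 were lower and 4 higher, with a median log2 fold change of 0.06. Nfyc, a subunit of NF-Y, was at 34.7, 33.0 and 30.5 CPM in the sensitive and 28.6, 26.3 and 24.5 CPM in the resistant group, and the groups did not overlap (log2 fold change -0.31, standard error 0.191, edgeR adjusted p = 0.940). Nfya, another subunit, differed in the other direction, at 55.5 ± 24.9 CPM (SD, n = 3) against 81.7 ± 17.03 (SD, n = 3), with a log2 fold change of 0.56 (standard error 0.380, edgeR adjusted p = 0.940). The myeloid transcription factors Spi1 and Irf8, both known for high levels in macrophages, had log2 fold changes of -0.10 (standard error 0.224) and -0.21 (standard error 0.212).

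Of the 9 endosomal proteases and their helpers, 6 were lower and 3 higher, with a median log2 fold change of -0.29. The most abundant per length were Ctsd and Ctsb, the cathepsins D and B, with log2 fold changes of -0.41 (standard error 0.541) and 0.04 (standard error 0.276). Lgmn, the asparaginyl endopeptidase, named after its values were seen, was at 3386, 4096 and 4134 CPM in the sensitive and 3108, 3357 and 2404 CPM in the resistant group, without overlap (log2 fold change -0.39, standard error 0.247, edgeR adjusted p = 0.940). The protease inhibitors Cst3 and Cstb were at -0.30 (standard error 0.418) and 0.02 (standard error 0.240) on the same log2 scale. Marchf1 and Marchf8, ubiquitin ligases that remove class II molecules from the surface, were at -0.13 (standard error 0.421) and 0.29 (standard error 0.290). H2-Eb2, a further class II β chain gene, had at most 4 counts per library and was not tested.

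Markers of other cells that carry class II were set beside these values. The 9 dendritic cell markers summed to 31.0, 59.2 and 43.1 CPM in sensitive replicates 1, 2 and 3 and to 34.9, 27.7 and 30.6 CPM in resistant replicates 1, 2 and 3, with Cd209a at 0 counts and Siglech at 1 count or fewer in every library. The 7 B cell markers summed to 4.73, 2.65 and 11.1 CPM and to 6.42, 0.922 and 2.10 CPM in the same order, and Ms4a1 was at 0 counts in 5 of 6 libraries. In both sums, resistant replicates 2 and 3 lay below every sensitive library and replicate 1 lay among them. For dendritic cells this rested on 30.6 against 31.0 CPM, a gap too small to be read as an order. The B cell sums were small, and Ighm alone ran from 0.256 to 8.30 CPM. The part of these cells in the class II values was not tested. The 12 macrophage and Kupffer cell markers summed to at least 21936 CPM in every library and their group ranges overlapped, with 7 lower and 5 higher in the resistant group and a median log2 fold change of -0.33.

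**Figure D4:**
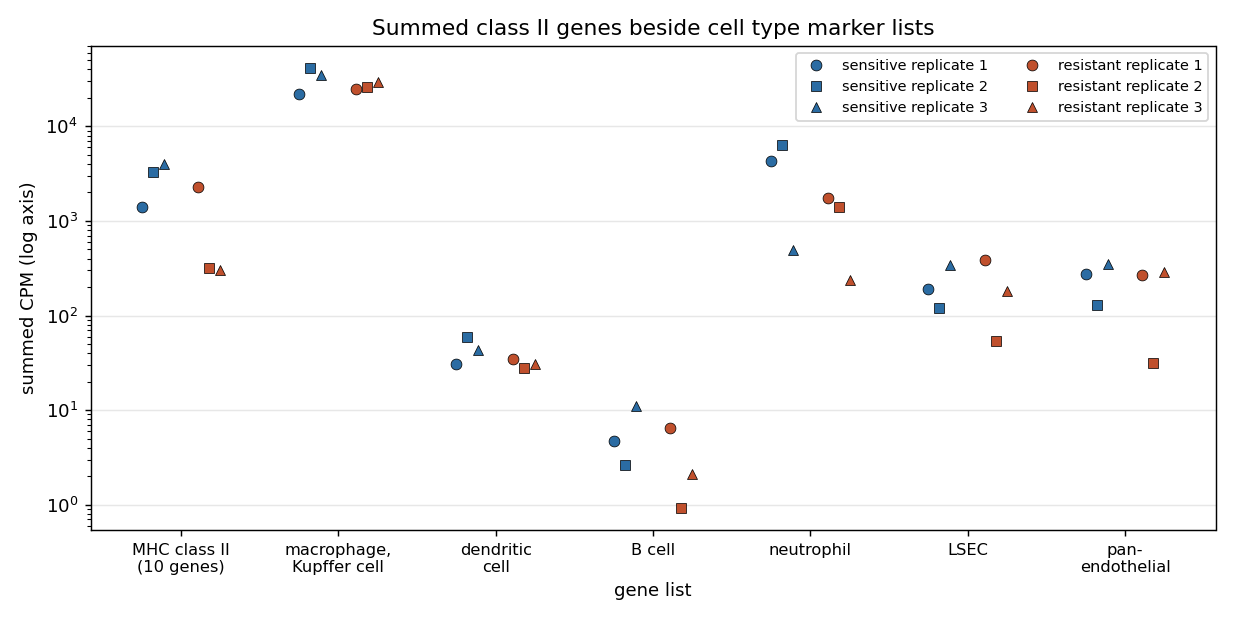
Summed CPM of the 10 class II genes and of 6 lists of cell type markers in each library, on a log axis (blue, sensitive; orange, resistant; the shape gives the replicate). The macrophage and Kupffer cell sum ranges from 21936 to 41471 CPM over the libraries, and a sum does not show the course of single markers. The class II sum is 316 and 305 CPM in resistant replicates 2 and 3.

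Within the macrophage and Kupffer cell list, single genes took different courses. Timd4, a marker of long-lived resident Kupffer cells, was at 103, 157 and 94.4 CPM in sensitive replicates 1, 2 and 3 and at 76.8, 12.6 and 19.8 CPM in resistant replicates 1, 2 and 3. Clec4f, a lectin particular to Kupffer cells, was at 2295, 5554 and 3432 CPM and at 3661, 1773 and 2008 CPM in the same order, so both were lowest in the libraries in which Cd74 was lowest. Cd68, a lysosomal protein of macrophages in general, was at 998, 699 and 1596 CPM and at 1025, 1794 and 1437 CPM, and was not low in those libraries. At least 2 resistant libraries lay below every sensitive library for 3 of the 12 genes, where they did for 15% of all genes tested. For Vsig4, in the same list, no resistant library did. Of the 12 genes, 5 had positive log2 fold changes: Lyz2 (0.62), Adgre1 (0.52), Vsig4 (0.40), Cd68 (0.37) and Csf1r (0.22). The other 7 lay between -1.70, for Timd4, and -0.27, for C1qc, and with edgeR 0 of 12 passed after adjustment. Timd4, Clec4f and Cd68 were picked after their values were seen, and the part of Kupffer cells in the class II values was not tested.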

How the data were processed

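RNA-seq counts of 6 libraries were analysed, with groups and replicate numbers taken from the sample titles. The authors aligned the reads of 101 bases with HISAT2 2.0.5, counted them with featureCounts 1.5.0-p3 and deposited whole-number counts without normalization, beside deposited FPKM values. The submitters' processing notes name the build mm9, but the gene lengths implied by the FPKM values lay within 1% of the exon unions of GENCODE M21 (GRCm38) for 98.4% of the 14886 tested genes with an entry there, so positions are given in GRCm38. By the methods, mRNA was purified by its poly(A) tail and rRNA was depleted. A further table of the authors' own DESeq2 comparison (group means, fold changes and p-values) was not used.

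Genes were filtered with filterByExpr, scaled by TMM and compared with the quasi-likelihood test of edgeR 4.0.16 (R 4.3.3, robust, no covariate, two-sided, Benjamini-Hochberg adjustment over 15474 genes, threshold 0.05). Standard errors follow from the F statistic, and permutation tests used log2 CPM with a prior count of 2. The procedure was first tested on simulated data. Alternatives were DESeq2 1.42.0, limma-voom and limma on log2(FPKM + 1) (both with limma 3.58.1), median-of-ratios size factors or plain library totals, a stricter filter or none, a replicate block, and leaving out each of the 6 libraries. No counts came from molecular identifiers, so floors cover counting error only.

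The 10 genes, the wider list and the marker lists were chosen with earlier results of these data known. Named are the 10 genes, of the wider list those with an unadjusted p-value under 0.05 and the 2 of highest mean FPKM in each role, the 5 genes most alike across libraries, and markers beside results that turn on them. Lgmn was added after its values were seen, because its groups did not overlap. A gene of the wider list is not reported here. Sequences are from RefSeq. Figures were drawn with matplotlib 3.10.9.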

Additional observations from a re-analysis of the deposited data

How the results depend on the processing

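After adjustment, 0 of the class II genes given a p-value (9 in most fits, 8 with the stricter filter or DESeq2, 10 with no filter) and 0 of the wider list passed 0.05 in edgeR's test and in each alternative. Unadjusted p-values under 0.05 numbered 0 with all libraries, 2 with DESeq2 (which gave Cd74 no p-value), 1 with limma-voom, 1 with log2(FPKM + 1), 2 without sensitive replicate 3 and 3 without resistant replicate 1. The 2 without sensitive replicate 3 went in opposite directions, H2-Eb1 lower and H2-DMb2 higher in the resistant group. Over all genes tested, the number with an adjusted p-value under 0.05 was 0 (476 unadjusted), 24 with DESeq2 (732 unadjusted) and 2 with no filter (2036 unadjusted). The unadjusted number over all genes was 372 with limma-voom and 447 with log2(FPKM + 1). It was 1056 of 16169 without sensitive replicate 3 and 628 of 16049 without resistant replicate 1. The log2 ratio of the summed CPM was -1.57, from -1.62 to -1.42 with other scalings, FPKM or without Cd74, and from -3.23 to -1.15 leaving out each library. For the 9 tested genes, the alternatives gave 125 values, of which 115 had the same direction as edgeR's test, with no adjusted p-value under the threshold, and 10 changed direction. H2-DMb1 was 0.0587 with limma-voom, 0.0792 with log2(FPKM + 1), 0.0687 with the replicate block and from -0.56 to 0.63 leaving out each library. H2-DMb2 was 0.18, 0.20 and 0.21 in the same fits and from -0.43 to 0.87 leaving out each library, and H2-Ob from -1.69 to 0.30. Of the wider list, Jak1 (-0.12 to 0.24), Spi1 (-0.23 to 0.0181), Ctsb (-0.0865 to 0.18), Ctsd (-0.73 to 0.41), Cst3 (-0.54 to 0.13), Cstb (-0.13 to 0.26) and Marchf1 (-0.48 to 0.26) changed direction when a library was left out. Cstb was also -0.00034 with at least 10 counts in every library and Marchf1 0.0433 with log2(FPKM + 1). By over 1.5 times, without a change of direction, H2-Eb1 moved to -0.86 with limma-voom, -0.92 with log2(FPKM + 1) and -0.86 with the block, H2-Ea to -1.08, -1.14 and -1.23 in the same fits, Cd74 to -2.41, -2.32 and -2.72, and Ciita to -0.21 and H2-Ob to -0.06 with log2(FPKM + 1). The cause of these changes was not tested. Same-numbered libraries share only a number, with correlations of their deviations of -0.00093, 0.034 and 0.194, and the replicate block gave 0 adjusted calls and 467 unadjusted ones over all genes. Depth limits H2-Oa and H2-Ob, with at most 36 counts in a library.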

Other observations

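The gene of the 9632 with an average log2 CPM of at least 3 whose pattern was most like the mean z-score of H2-Aa, H2-Ab1, H2-Eb1 and Cd74 was Slc38a7, an amino acid transporter of the lysosome, with Pearson's r of 0.993 over the 6 libraries. It was at 110.5, 126 and 126 CPM in sensitive replicates 1, 2 and 3 and at 122.5, 77.5 and 82.0 CPM in resistant replicates 1, 2 and 3. Next came Ddx59 (r = 0.989), Supt5 (r = 0.987), Aoah (r = 0.986) and H2-K1 (r = 0.978). Aoah, an enzyme of myeloid cells that inactivates lipopolysaccharide, was at 28.3, 39.4 and 33.3 CPM and at 39.5, 16.1 and 16.0 CPM. H2-K1, a classical class I gene, was at 1089, 1574 and 1211 CPM and at 1428, 625 and 677 CPM. All 5 were lowest in resistant replicates 2 and 3, where the reference score was also lowest, so this follows from how they were selected. The r value does not reflect the size of a change. Relative to their level, Ddx59 and Supt5 varied less between libraries than Slc38a7, Aoah and H2-K1. These r values describe the closest of many genes over 6 libraries that share their depth and make-up with the reference, and they carry no p-value.

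Between H2-Oa and H2-Ea on chromosome 17 the annotation holds 22 genes, 7 of which were tested and are not class II genes. Among them, 4 were lower and 3 higher in the resistant group, with a median log2 fold change of -0.49. These neighbours were taken by position. The 4 lower ones, which all serve class I presentation, were Psmb8 (-1.23, standard error 0.511, unadjusted p = 0.0464 from edgeR) and Psmb9 (-0.93, standard error 0.405), subunits of the immunoproteasome, and Tap1 (-0.62, standard error 0.432) and Tap2 (-0.49, standard error 0.328), the peptide transporter. The adjusted p-value from edgeR was 0.940 for each of the 4. An unadjusted p-value under 0.05 was thus found for 1 of the 7, where 2.54% of all tested genes had one and were lower. Brd2, a chromatin reader in the same stretch, was at 0.11 on the log2 fold change scale (standard error 0.225). The other higher genes, Gm15821 and Gm50335, had low levels, with average log2 CPM of -0.97 and -0.60. Their log2 fold changes were 0.08 (standard error 1.12) and 0.42 (standard error 1.05).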
